A study of Mus musculus with 8 samples.

Results

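The 10 genes described here are heat shock proteins and chaperones of the cytosol and the mitochondrion, chosen by symbol: Hspa1a, Hspa1b, Hspa8, Hsph1, Hsp90aa1, Hsp90ab1, Dnajb1, Dnaja1, Hspd1 and Hspe1. All 10 of these were among 54749 genes in the count files, and all 10 had enough counts to be among the 21902 genes tested. They were measured by RNA sequencing of long-term haematopoietic stem cells (LT-HSCs) sorted from the bone marrow of 8 mice aged 6 months, 1 library per mouse. Of these, 4 mice were homozygous asrij floxed controls (library numbers 1, 3, 4 and 5) and 4 lacked asrij in the whole body (asrij KO, library numbers 2, 3, 4 and 5). Asrij is the protein encoded by Ociad1. Both sexes were used in the study, the strain background of these mice is not given in the sources used here, and no further allele or agent is named for either genotype. Because the deletion was present in every tissue, a difference in LT-HSCs could not be assigned to loss of the gene in those cells. The study describes the sorted population for sequencing as LSK CD150+ CD48+, and elsewhere as CD48-.

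Chaperones bind unfolded or partly folded proteins and use cycles of ATP to let them fold. HSP70 proteins take up clients that J-domain proteins deliver, HSP110 proteins exchange the nucleotide, and HSP90 proteins act later on kinases and receptors. In mitochondria the HSP60 chamber and its HSP10 lid fold imported proteins. Under heat and other proteotoxic stress the factor HSF1 binds repeated short elements in the promoters of these genes, and tissue dissociation and sorting are known to raise stress-induced HSP70 and the immediate early genes.

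The 2 stress-inducible HSP70 genes are near copies of each other. Hspa1a (ENSMUSG00000091971.3, GRCm38 chr17:34969190-34972156, minus strand) and Hspa1b (ENSMUSG00000090877.3, chr17:34956436-34959238, minus strand) each consist of 1 exon. Their longest reading frames of 1926 and 1929 bases were separated by 10 single-base edits (99.5% identity), and 62.3% of the 50-base stretches of the Hspa1b transcript also occurred in Hspa1a. Their promoters are shown because so few bases tell these genes apart. The windows cover the 250 bases before the RefSeq start site (GRCm38.p6), chr17:34972157-34972406 for Hspa1a and chr17:34959239-34959488 for Hspa1b, both read 5′ to 3′ on the minus strand. Capitals mark matches to TTCNNGAA or GAANNTTC, the core of a heat shock element.
Hspa1a: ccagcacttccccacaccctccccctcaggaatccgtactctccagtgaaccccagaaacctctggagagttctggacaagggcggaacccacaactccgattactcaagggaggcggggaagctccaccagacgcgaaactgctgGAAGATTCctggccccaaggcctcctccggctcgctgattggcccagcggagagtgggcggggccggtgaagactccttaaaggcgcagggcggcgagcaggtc
Hspa1b: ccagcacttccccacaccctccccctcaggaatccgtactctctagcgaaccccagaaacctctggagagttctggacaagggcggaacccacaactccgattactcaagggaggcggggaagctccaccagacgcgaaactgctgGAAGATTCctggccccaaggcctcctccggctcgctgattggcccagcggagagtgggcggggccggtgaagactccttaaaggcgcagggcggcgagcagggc
The promoters differed at 3 of 250 bases, C44T, T47C and T249G from Hspa1a to Hspa1b, counted from 1 at the 5′ end, and the marked element was the same in each.

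The mitochondrial pair shares a promoter. Hspd1 (ENSMUSG00000025980.14, chr1:55077835-55088243, minus strand) encodes HSP60 and Hspe1 (ENSMUSG00000073676.4, chr1:55088132-55091307, plus strand) encodes HSP10, and the genes lie head to head. A stretch of 100 bases between their main transcripts, chr1:55088028-55088127 on the plus strand, held 18 consecutive bases covered by 3 overlapping matches.
Hspe1: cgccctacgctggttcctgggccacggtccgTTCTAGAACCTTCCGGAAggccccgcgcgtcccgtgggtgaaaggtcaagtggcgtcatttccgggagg
Both motifs read the same on either strand and were counted with overlaps. At least 1 of them occurred in the 250 bases before 12.8% of 32851 RefSeq start sites, and both occurred before 1.02%. A match was present in 7 of 12 windows of the 7 members that had one, covering 6 members, with Dnajb1 as the member without a match. A match is a string of letters and not evidence of binding.

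The libraries held 23412829 to 44874882 gene counts. Libraries with numbers 4 and 5 stood apart from those with numbers 1 to 3 along the first principal component, which took 41.3% of the variance, and they held 23412829 to 32933634 gene counts against 34672846 to 44874882. This split was seen in the counts, no source gives it as a batch, and each side holds 2 libraries of each genotype. Floxed replicate 3 also differed from the other floxed libraries. As a check of the labels, Ociad1 measured 41.6, 66.9, 36.7 and 31.3 CPM in the floxed libraries and 15.2, 19.7, 12.5 and 11.7 CPM in the KO libraries. Here and below, CPM are read counts scaled to 1000000 counts per library with TMM factors, and the 4 values of a genotype stand in the order of the library numbers 1, 3, 4 and 5 for floxed and 2, 3, 4 and 5 for KO. The 12 LT-HSC markers summed to 129 to 155 CPM, with a median of 6.56 CPM over the list. Of these, 3 averaged under 1 CPM (Hoxb5, Procr and Fgd5), whereas Kit averaged 53.4 CPM and Cd34 28.1 CPM. The 12 erythroid markers summed to 27989 to 70677 CPM in floxed and 122507 to 295200 CPM in KO libraries, and the 12 neutrophil and monocyte markers to 18479 to 58975 and 27937 to 34224 CPM. By genotype 3 of 12 erythroid, 6 of 8 megakaryocyte and platelet, 2 of 8 B cell and 1 of 11 tested LT-HSC markers passed the test described below, all higher in KO. Of the 12 neutrophil and monocyte and the 8 T and NK cell markers, 0 passed. Over all genes tested, 2.97% passed. Fewer cells of a type and less RNA per cell cannot be told apart in such bulk libraries, and the part of other cells in the chaperone values was not tested.

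Levels differed widely among the members. Per kilobase of spliced transcript, the cytosolic HSP90 gene Hsp90ab1 stood highest, with a mean of 199 CPM per kb (range over 8 libraries 152 to 216). The constitutive HSP70 gene Hspa8 followed at 85.2 (48.3 to 133) and the other cytosolic HSP90 gene, Hsp90aa1, at 39.2 (23.6 to 60.2) on that scale. The HSP40 gene Dnajb1 had 24.8 CPM per kb (17.0 to 31.6), Hspd1 16.7 (11.0 to 23.3) and Hspe1 9.61 (4.26 to 17.6). Hsph1, an HSP110, and Dnaja1, a J-domain partner of HSP70, lay close together, at 5.75 (4.21 to 7.34) and 5.69 (3.89 to 7.72) CPM per kb. Inducible HSP70 was the lowest, at 0.976 CPM per kb (0.256 to 2.63) for Hspa1b and 0.557 (0.108 to 1.29) for Hspa1a. Ranges of neighbours in this order overlapped except between Hsp90ab1 and Hspa8 and between Dnaja1 and Hspa1b. Since the counts include introns, the genes with long introns are overstated on this scale. Per kilobase of genomic span, Hspd1 (3.97) still stood above Hspe1 (2.34). Hsph1, at 1.11 CPM per kb of span, was then close to the 1-exon gene Hspa1b (0.976). The gap above inducible HSP70 thus belongs to the spliced scale.

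Between genotypes, none of the 10 members passed the test. The question was whether loss of asrij changes chaperone transcripts in LT-HSCs. At an adjusted p-value under 0.05 in edgeR's quasi-likelihood test, 0 of 10 members were called, beside 2.97% of all genes tested (651 genes, 268 higher and 383 lower in KO). Unadjusted p-values under 0.05 were found for 0 of 10 members and 21.8% of all genes, and DESeq2 called 0 members and 2447 genes (11.2%). Leaving out 1 library at a time gave 61 genes (0.274%, without floxed replicate 1) to 3875 genes (17.5%, without floxed replicate 3) and 0 members each time. The fit with libraries 3, 4 and 5 of each genotype as a replicate block called 48 genes (0.222%) and 0 members. At 2.97% or a lower share, a list of 10 genes would most often hold no call, so 0 of 10 does not set the members apart. The median log2 fold change of the members was 0.01, with -0.01 over all genes tested. No member had non-overlapping genotypes, beside 14.8% of all genes, a share at which a list of 10 genes can also hold none. With the thresholds of the study added, an absolute log2 fold change above 1.5, 1.19% of all genes and 0 members were called.

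**Figure D1:**
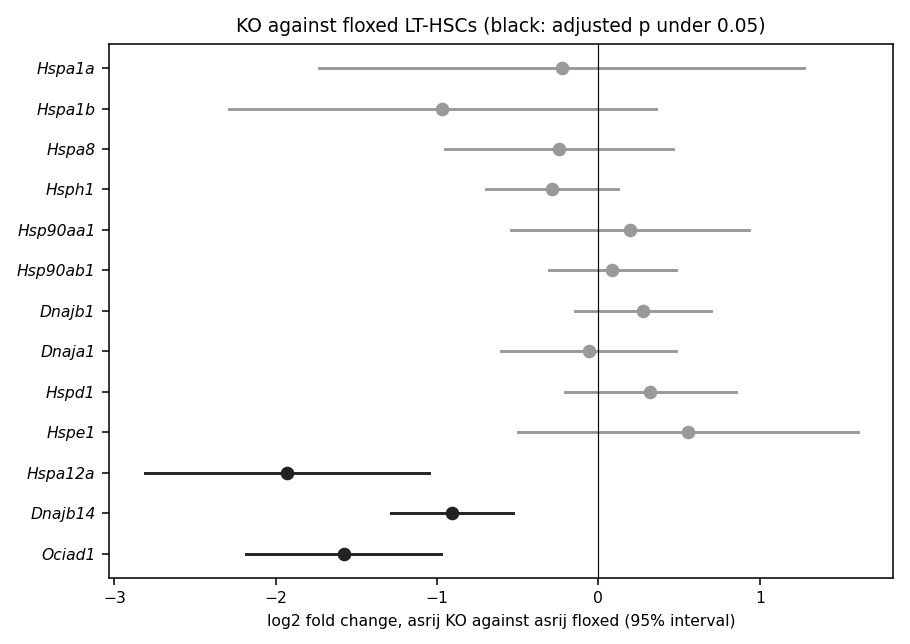
Log2 fold change in asrij KO against asrij floxed LT-HSCs (x axis) with its 95% interval from edgeR's quasi-likelihood fit, for the 10 members, for the only 2 other chaperone genes called at an adjusted p-value under 0.05, and for Ociad1. The intervals of all 10 members cross 0, whereas those of Hspa12a, Dnajb14 and Ociad1 lie below it.

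The intervals show how large a genotype difference these libraries leave room for. They were narrowest for Hsp90ab1, with a log2 fold change of 0.09 ± 0.18 (SE, n = 4 per genotype, 95% interval -0.31 to 0.48), for Hsph1 (-0.29 ± 0.18, -0.70 to 0.12) and for Dnajb1 (0.28 ± 0.19, -0.15 to 0.70). Hspd1, at 0.32 ± 0.24, could lie between -0.21 and 0.85, and Dnaja1, at -0.06 ± 0.24, between -0.60 and 0.48. The intervals of Hspa8 (-0.24 ± 0.32, -0.95 to 0.46) and Hsp90aa1 (0.20 ± 0.33, -0.54 to 0.94) reached almost 1 log2 unit, and that of Hspe1 (0.55 ± 0.47) ran from -0.50 to 1.61. They were widest for Hspa1a (-0.23 ± 0.67, -1.73 to 1.28) and Hspa1b (-0.97 ± 0.59, -2.29 to 0.36), which rested on 17 to 100 and 38 to 192 counts per library. Adjusted p-values of the 10 members ran from 0.379 for Hspa1b to 0.913 for Dnaja1.

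Inducible HSP70 varied most between libraries. Hspa1b measured 2.51, 0.719, 3.91 and 7.36 CPM in the floxed libraries, and 1.28, 1.30, 2.34 and 2.46 CPM in the KO libraries. Hspa1a measured 1.0, 0.322, 2.0 and 3.83 CPM in the floxed libraries and 0.923, 0.806, 2.24 and 2.10 CPM in the KO libraries. For each gene, floxed replicate 5 was the highest library and floxed replicate 3 the lowest, so the floxed group enclosed all KO values. Without floxed replicate 5, the log2 fold change of Hspa1b went from -0.97 to -0.35. Summed over both genes, the level was 5.41 ± 4.34 CPM in floxed and 3.36 ± 1.40 CPM in KO LT-HSCs (SD, n = 4 each), and the highest library exceeded the lowest 10.8-fold. In the fit with both genes merged, the log2 fold change was -0.68 ± 0.61 (SE, adjusted p = 0.560, edgeR). The span of Hspa1a also contains Gm20481 on the opposite strand. That gene had 364 counts in all against 390 for Hspa1a, and since the files count both strands, the reads of these genes cannot be told apart.

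By library number, both inducible HSP70 genes were higher in numbers 4 and 5. Hspa1a averaged 2.54 ± 0.87 CPM there and 0.763 ± 0.305 CPM in numbers 1 to 3 (SD, n = 4 each), and the sets did not overlap. Hspa1b averaged 4.02 ± 2.34 against 1.45 ± 0.75 CPM, with floxed replicate 1 inside the range of numbers 4 and 5. The difference in log2 CPM of the merged genes was 2.05 within floxed and 1.06 within KO libraries. These differences are descriptions without a test, because the split was made on the same counts.

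**Figure D2:**
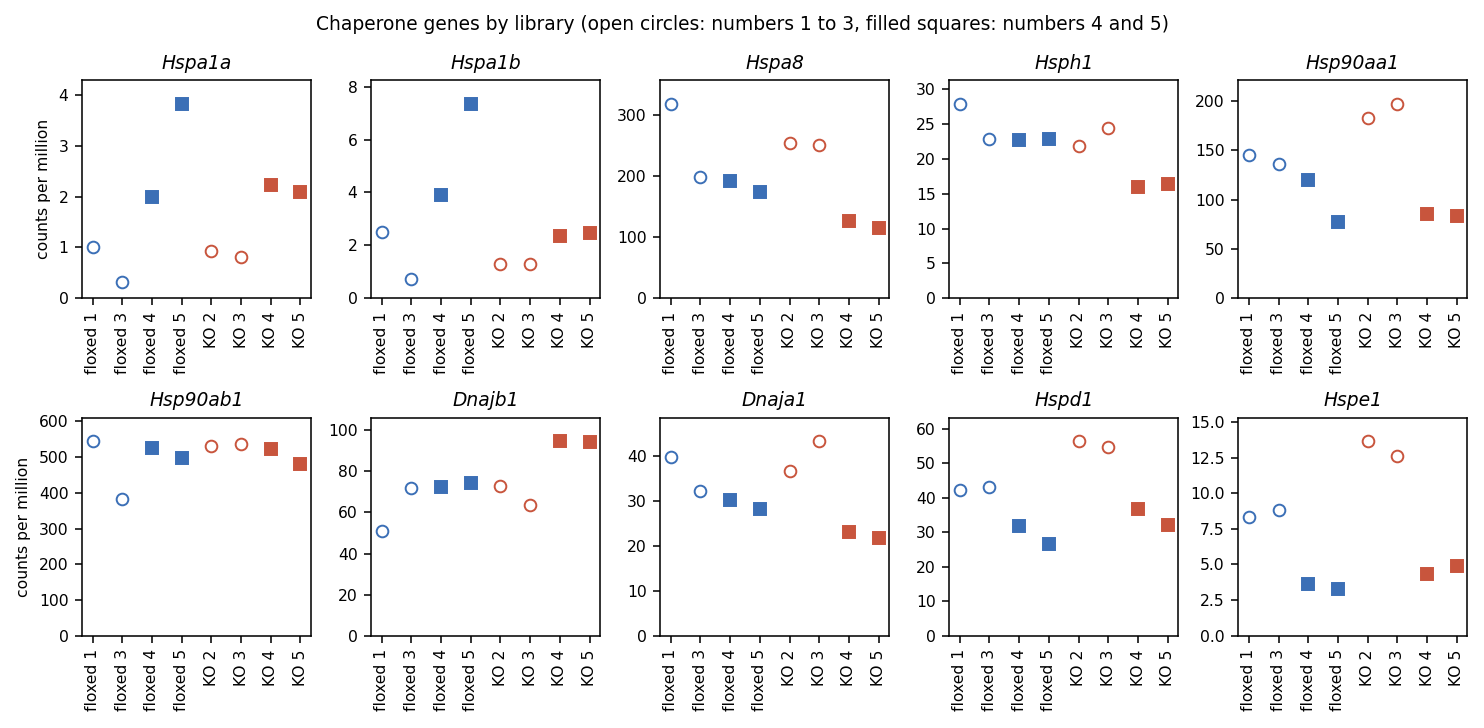
Level in CPM (y axis, from 0, own scale in each panel) of each member in each library, with floxed libraries in blue and KO libraries in red. Open circles are numbers 1 to 3 and filled squares are numbers 4 and 5. Squares lie above circles for Hspa1a and below them for Hspa8, Hsp90aa1, Dnaja1, Hspd1 and Hspe1, whereas genotypes overlap in every panel.

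The constitutive HSP70 gene went the other way. Hspa8 (ENSMUSG00000015656.17, chr9:40800984-40810087, plus strand) measured 319, 199, 192 and 174 CPM in the floxed and 255, 251, 126 and 116 CPM in the KO libraries. All 4 libraries of numbers 4 and 5 lay below all 4 of numbers 1 to 3, by 1.68-fold in the means, although floxed replicates 3 and 4 were close. In log2 CPM the difference was -0.46 within floxed and -1.06 within KO libraries. Of its 50-base stretches, 73.2% recurred in transcripts of other genes, mostly in Gm15459, so part of its reads could have been assigned elsewhere. Hsph1 (ENSMUSG00000029657.15, chr5:149614287-149636376, minus strand), the exchange factor of HSP70, measured 27.9, 22.9, 22.7 and 22.8 CPM in the floxed and 21.9, 24.4, 16.0 and 16.4 CPM in the KO libraries. Its KO replicates 4 and 5 were the lowest of all 8, whereas floxed replicates 3, 4 and 5 were almost equal.

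The J-domain partners of HSP70 differed from each other. Dnaja1 (ENSMUSG00000028410.13, chr4:40722150-40737149, plus strand) measured 39.9, 32.3, 30.4 and 28.2 CPM in the floxed libraries and 36.7, 43.4, 23.2 and 21.8 CPM in the KO libraries. It was lower in numbers 4 and 5 without overlap, by 1.47-fold in the means. The 3′ end of its span overlaps Smu1 on the opposite strand, which had 12641 counts against 9029, so some of its reads may be those of Smu1. Dnajb1 (ENSMUSG00000005483.10, chr8:83608193-83612653, plus strand), which is itself induced by heat, measured 51.0, 71.7, 72.2 and 74.4 CPM in the floxed and 72.9, 63.8, 94.8 and 94.5 CPM in the KO libraries. It was 1.29-fold higher in the mean of numbers 4 and 5, with overlap, since KO replicate 2 exceeded floxed replicate 4.

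Both cytosolic HSP90 genes were abundant, but only Hsp90aa1 separated the library numbers. Hsp90aa1 (ENSMUSG00000021270.13, chr12:110690605-110702728, minus strand), the stress-responsive form, measured 146, 136, 120 and 77.4 CPM in the floxed libraries and 183, 198, 85.3 and 83.2 CPM in the KO libraries. It was 1.81-fold lower in the mean of numbers 4 and 5. Hsp90ab1 (ENSMUSG00000023944.14, chr17:45567775-45573271, minus strand), the constitutive form, measured 545, 383, 525 and 497 CPM in the floxed and 531, 537, 521 and 480 CPM in the KO libraries. Only floxed replicate 3 lay below 480 CPM, and the means of the number sets were 506 ± 21.4 and 499 ± 77.4 CPM (SD, n = 4 each). Shared 50-base stretches made up 58.5% of the Hsp90aa1 transcript and 4.49% of that of Hsp90ab1.

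The mitochondrial chaperonin and its lid had the pattern of Hsp90aa1. Hspd1 measured 42.1, 43.2, 31.8 and 26.6 CPM in the floxed libraries and 56.4, 54.7, 36.7 and 32.0 CPM in the KO libraries. Hspe1 measured 8.33, 8.79, 3.66 and 3.30 CPM in the floxed and 13.7, 12.6, 4.29 and 4.89 CPM in the KO libraries. For both genes numbers 4 and 5 lay below numbers 1 to 3 without overlap, by 1.54-fold for Hspd1 and 2.69-fold for Hspe1 in the means. Within each number set the KO libraries were also the higher ones, with log2 differences for Hspe1 of 0.61 in numbers 1 to 3 and 0.39 in numbers 4 and 5, and for Hspd1 of 0.38 and 0.23. In a fit with a term for library numbers, Hspe1 was higher in KO, with a log2 fold change of 0.52 ± 0.14 (SE, adjusted p = 0.0312, edgeR), the only member to pass there, beside 18.5% of all genes, with the caveat that this split was itself read from the counts. In the fit without that term the value was 0.55 ± 0.47 (adjusted p = 0.540). Hspd1 had an adjusted p of 0.0749 with the term. Shared 50-base stretches made up 44.8% of the Hspd1 transcript, mostly with Hspd1-ps3, and 36.1% of the Hspe1 transcript, mostly with AC117239.2. Part of the reads of both genes could thus have been assigned elsewhere.

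Over all 10 members, 5 were lower in numbers 4 and 5 without overlap, beside 13.3% of all genes tested, and 1 was higher without overlap, beside 12.5%. The median log2 difference of the members was -0.45, with -0.05 over all genes. Within floxed libraries alone the median was -0.22 and within KO libraries alone -0.60. The difference followed base composition across all genes. Spearman's rho with the GC content of the transcript was 0.49 over 21902 genes, which share the 8 libraries, and the median log2 difference went from -0.44 in the class with the lowest GC content to 0.42 in the class with the highest, when the genes were split by GC content into 5 classes of equal size. For the genotype fold change the rho with GC content was 0.28. GC content is that of the spliced transcript, whereas the counts also cover introns. Hspa1a and Hspa1b had a GC content of 58.9% and 58.1%, in the highest class, whereas Dnaja1 (41.2%) and Hsp90aa1 (43.7%) were in the lowest. Relative to the median of their own GC class, the log2 differences were 1.29 for Hspa1a, 0.98 for Hspa1b, -1.54 for Hspe1, -0.69 for Hspa8, -0.42 for Hsp90aa1 and -0.39 for Hspd1. They were 0.23 for Dnajb1, 0.11 for Hsp90ab1, -0.09 for Hsph1 and -0.12 for Dnaja1, and the median of all 10 was then -0.11.

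**Figure D3:**
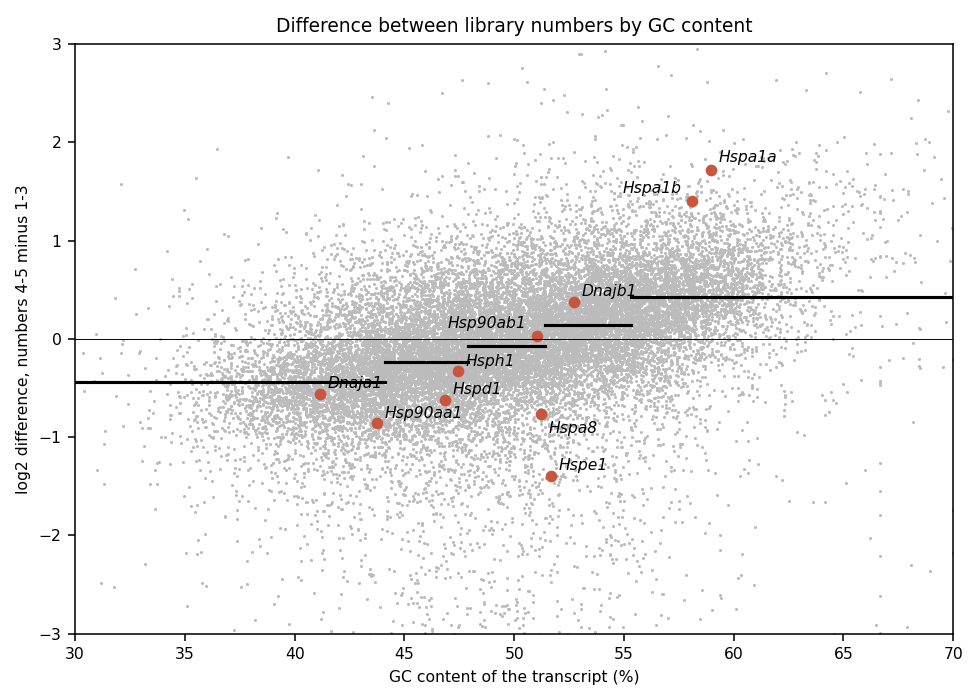
Difference in mean log2 CPM between library numbers 4 and 5 and numbers 1 to 3 (y axis) against the GC content of the transcript (x axis, %) for the genes tested, as grey points, with the members in red. Black bars are the medians of the 5 classes of genes by GC content. Hspa1a and Hspa1b lie above and Hspe1 and Hspa8 below the medians of their classes, and 251 genes fall outside the axes.

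Genes of the wider chaperone system were counted in 9 lists with 94 genes, of which 88 were tested. By genotype 2 of 88 passed (2.27%, beside 2.97% of all genes), both lower in KO. Hspa12a, a distant HSP70 relative, measured 3.51, 1.78, 3.23 and 2.80 CPM in the floxed libraries and 0.461, 0.572, 0.674 and 1.27 CPM in the KO libraries (log2 fold change -1.93 ± 0.39, SE, adjusted p = 0.0365, edgeR). Dnajb14, a J-domain protein of the endoplasmic reticulum membrane, measured 73.2, 48.9, 56.5 and 51.1 CPM in the floxed and 29.4, 35.5, 29.1 and 28.3 CPM in the KO libraries (-0.91 ± 0.17, adjusted p = 0.0302). For both genes, named because they passed, all floxed libraries lay above all KO libraries. Genotypes did not overlap for 14.8% of all genes tested, and Hspa12a had only 18 to 35 counts in the KO libraries. Both calls were lost with the replicate block of numbers 3, 4 and 5, which called 0 of 87 of these genes beside 0.222% of all genes. The count was 0 when any 1 of the other 7 libraries was left out and 20 without floxed replicate 3 (22.7%, beside 17.5% of all genes). With the term for library numbers 21 of 88 passed (23.9%, beside 18.5% of all genes), 14 higher and 7 lower in KO.

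The lists without a call are given by their largest changes, none of which passed. Among 5 heat shock factors these were Hsf4 (log2 fold change 0.59) and Hsf1 (0.13), the main regulator of the heat shock response. Among 21 co-chaperones of HSP70 and HSP90 they were Bag2 (0.83) and Bag1 (0.53), both nucleotide exchange factors. Of 8 small heat shock protein genes only Cryab (0.88) and Hspb6 (0.61) were tested, and Hspb1 had at most 0.306 CPM. In the cytosolic chaperonin TRiC, with 8 subunits, Cct7 (0.48) and Cct8 (0.34) had the largest changes. Prefoldin, which hands clients to TRiC, had Pfdn1 (0.55) and Pfdn6 (0.50). Among 9 genes of mitochondrial protein quality control the largest were Clpp (0.66) and Yme1l1 (-0.56), both protease subunits, and among 13 chaperones of the endoplasmic reticulum Dnajb9 (-0.52) and Sdf2l1 (-0.50).

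By library number, the chaperonin subunits ran with Hspd1 and Hspe1. All 8 TRiC subunits were lower in numbers 4 and 5, 6 of them without overlap, with a median log2 difference of -0.56. The largest was that of Cct2, at 77.3 and 88.2 CPM in floxed replicates 1 and 3 against 43.2 and 45.2 CPM in replicates 4 and 5, and at 92.3 and 94.2 CPM in KO replicates 2 and 3 against 49.5 and 47.6 CPM in replicates 4 and 5. All 6 prefoldin subunits were lower as well, 1 without overlap (median -0.33). Hspa9, the mitochondrial HSP70, had a log2 difference of -0.54 without overlap. Hsf1 was higher in numbers 4 and 5 without overlap, at 23.8 ± 1.55 against 16.5 ± 1.93 CPM (SD, n = 4 each), and Hsf2 was lower, with a log2 difference of -0.44. Over all 88 wider genes, 9 were higher without overlap (10.2%, beside 12.5% of all genes) and 17 lower (19.3%, beside 13.3%), with a median of -0.16.

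Many immediate early genes respond within minutes to handling and mitogens, a response that was not measured here. The 20 genes listed as such mostly moved with inducible HSP70 between the number sets. Fos and Fosb did so only within floxed libraries, with log2 differences of 1.77 and 4.32. Within KO libraries the log2 differences were -0.41 and -1.93, and both rested on KO replicate 3. In KO replicates 2, 3, 4 and 5, Fos measured 10.4, 17.3, 9.83 and 10.3 CPM. Fosb measured 0.154, 3.85, 0.106 and 0.290 CPM there, so replicate 2 was close to replicates 4 and 5 for both genes. Of 20 measured, 19 were higher in numbers 4 and 5, beside 10222 of the 21902 genes tested. Without overlap 10 of the 20 were higher (50%, beside 12.5% of all genes tested), and the median log2 difference of the list was 1.10. The summed level of the 20 genes was 742 to 1430 CPM in numbers 1 to 3 and 2466 to 3155 CPM in numbers 4 and 5. Cebpb had the largest difference, 2.64, and Jund and Klf2 followed at 1.89 and 1.84. By genotype none of the 20 passed the test, beside 2.97% of all genes tested. The largest changes were those of Fos (-2.16 ± 0.55, SE, adjusted p = 0.0640, edgeR) and Fosb (-2.08 ± 1.32, adjusted p = 0.397). The part of handling, depth and base composition in the differences between number sets was not tested.

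**Figure D4:**
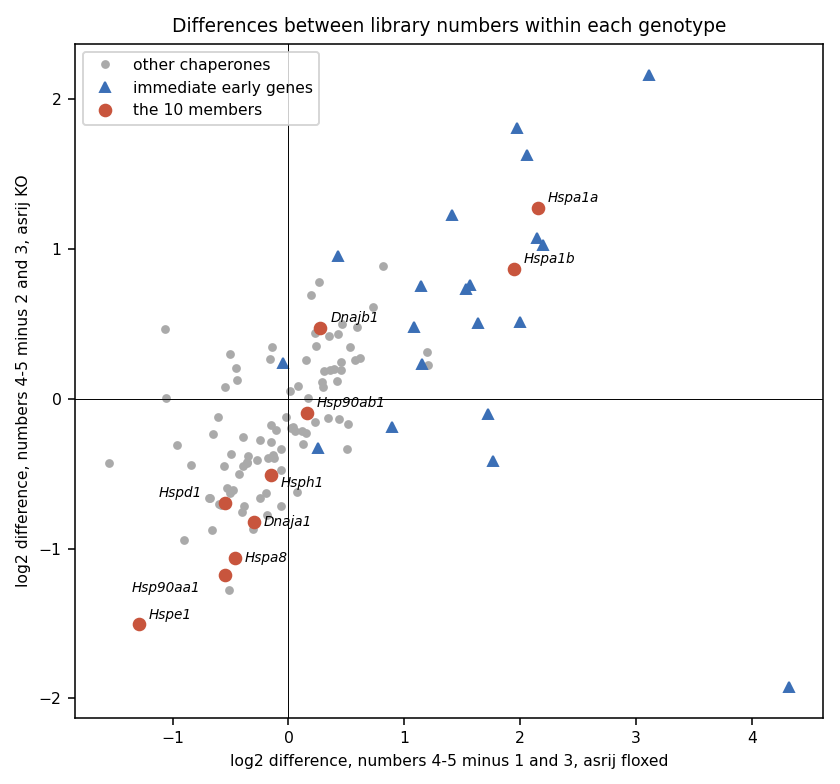
Difference in mean log2 CPM between library numbers 4 and 5 and the lower numbers, within asrij floxed (x axis) and within asrij KO (y axis) libraries, for the 10 members (red), the other chaperones tested (grey) and the immediate early genes (blue triangles). Hspa1a and Hspa1b lie among immediate early genes in the upper right, whereas the immediate early genes Fos and Fosb lie in the lower right. Hspe1, Hsp90aa1, Hspa8, Hspd1, Dnaja1 and Hsph1 lie in the lower left.

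The genes outside the members whose log2 CPM over the 8 libraries was most like that of summed Hspa1a and Hspa1b were Map7d1 (Pearson's r = 0.99), Fam53c (0.99), Tpst2 (0.99), Gaa (0.99) and Saraf (0.99). These are the highest values among all genes tested, the 8 libraries fall into the sets above, and the coefficients are given as a description. Map7d1 ranged from 42.9 to 153 CPM and Tpst2 from 28.3 to 101 CPM. None of the 5 genes passed the test between genotypes, and their adjusted p-values were 0.632 to 0.822.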

How the data were processed

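LT-HSC libraries were sequenced by the authors on an Illumina HiSeq instrument after preparation with an NEBNext Ultra kit. The authors trimmed reads with Trim Galore, checked them with FastQC and aligned them with Bowtie 2 to GRCm38/mm10 transcripts. Versions, the counting tool, its strand setting and the annotation release are not given in the sources used here. The deposited values are raw counts of 138930 Ensembl transcripts. Of the 8 files, 7 are tab-separated under a comma-separated name. Of 2678 pairs of transcripts of a gene with equal span but other spliced length (at least 50 counts each), 99.7% had equal counts in all libraries, as had 7 of 7 pairs on opposite strands, so that a count covers the whole span with introns and both strands.

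Transcripts were matched to genes with GENCODE M21 (138789 matched), and the transcript with the highest total stood for its gene. Genes were filtered with filterByExpr, scaled by TMM and tested with edgeR 4.0.16 in R 4.3.3 (glmQLFit and glmQLFTest, genotype alone, all 8 libraries), with Benjamini-Hochberg adjustment over all genes tested. Intervals are 95% intervals, and log2 CPM uses a prior count of 2. The fits were tested on simulated data that held no split by library number, so that check does not cover the split. Alternatives were other scalings, DESeq2 1.42.0, other filters and gene counts, a block, a term for library numbers and leaving out each library. Same-numbered libraries (3, 4 and 5 in each genotype) deviated together (correlations 0.374 to 0.579), and so did libraries of other numbers on the same side of the split (0.346 to 0.603). No source says that a number marks a shared litter or day. Between libraries of the same genotype the chi-square per degree of freedom over genes was at least 11.7, so none was counted as a duplicate.

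The members and lists were chosen with earlier results of these data known. Named were all members, Ociad1, in each list the genes that passed or else the 2 with the largest change, the 5 genes most like summed Hspa1a and Hspa1b, and genes overlapping a member. Cct2, Hspb1, Hspa9, Hsf2, Cebpb, Jund and Klf2 were named after their values were seen. Promoters are those of RefSeq.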

Additional observations from a re-analysis of the deposited data

Results flagged for a closer look

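Within a genotype of 4 libraries, floxed replicate 1 lay far from the other 3 floxed libraries for 2 members. On the scale of log2(CPM + 1), Hsph1 was at 4.85 in that library and at 4.56 to 4.58 in the others. Dnajb1 was at 5.70 there and at 6.18 to 6.24 in the others. In all, 22 groups were examined, so about 1.1 such values arise by chance.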

How the results depend on the processing

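The count of members called was 0 in the 8 fits that each left out 1 library and under every other alternative except the term for library numbers (1). The wider chaperone count of 2 became 10 with DESeq2, 0 with the replicate block, 21 with the term for library numbers, 1 with the fold threshold added, and 0 to 20 with 1 library left out. For all genes, 651 became 2447, 48, 4059 and 261 under these, and 61 to 3875 with 1 library left out, the highest without floxed replicate 3 and the lowest without floxed replicate 1. The median genotype change of the members was 0.11 with the replicate block and stayed within the spread between libraries (0.364) under all alternatives. The median between library numbers was -0.22 in floxed libraries alone, -0.60 in KO libraries alone and, in an alternative added after seeing the data, -0.11 relative to the class of equal GC content.

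Single members changed sign under 9 of their alternatives, none of these past the threshold. Hspa1a reached 0.15 with the replicate block and Hsp90ab1 -0.076 with sums over transcripts. With 1 library left out, the values were -0.58 to 0.48 for Hspa1a, -0.41 to 0.011 for Hspa8, -0.027 to 0.40 for Hsp90aa1, -0.0027 to 0.16 for Hsp90ab1 and -0.26 to 0.099 for Dnaja1. The members that kept their sign ranged from -1.31 to -0.35 (Hspa1b), -0.41 to -0.18 (Hsph1), 0.18 to 0.38 (Dnajb1), 0.21 to 0.48 (Hspd1) and 0.30 to 0.82 (Hspe1). Without floxed replicate 5, the library with most inducible HSP70, Hspa1a was at 0.48 and Hspa1b at -0.35. In the same fits Ociad1 was -1.75 to -1.29, and its adjusted p-value was at most 0.0881. The cause of these changes was not tested. Inducible HSP70 had at most 292 counts in a library, which limits its precision.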

Other observations

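The share of Hspa1a in the summed counts of Hspa1a and Hspa1b was picked out after the values had been seen and is given without a test. It was 28.6%, 30.9%, 33.8% and 34.2% in floxed replicates 1, 3, 4 and 5 and 41.9%, 38.3%, 48.8% and 46.0% in KO replicates 2, 3, 4 and 5. All 4 KO libraries lay above all 4 floxed libraries, by 11.9 percentage points in the means. The libraries held 55 to 292 summed counts, the genes share most of their sequence, and how reads that match both genes were assigned is not given in the sources used here.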
